A study of Arabidopsis thaliana with 8 samples.

Results

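Of the genes measured in Arabidopsis thaliana under dim and bright red light, 4 are described here. They encode proteins of families that handle RNA or transcription in chloroplasts and mitochondria. AT3G26630 is a pentatricopeptide repeat (PPR) protein, and AT1G01080 is a protein with an RNA recognition motif (RRM). AT5G55580 (mTERF9) and AT1G62150 are both of the mitochondrial transcription termination factor (mTERF) family. All 4 were chosen by protein family, and with their differences between the light levels on these arrays already known. Each lies on 1 of the 692 probes that the platform annotation assigns to a single gene, among 3439 probes in all. Family assignments were taken as given. Where the proteins reside in the cell was not measured, and the gene table used here gives a name, mTERF9, for AT5G55580 alone. The table lists AT1G01080 and AT1G62150 on chromosome 1, AT3G26630 on chromosome 3 and AT5G55580 on chromosome 5.

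Total RNA came from plants of the Landsberg ecotype, all wild type. Plants behind 4 arrays received red light of 200 µE and those behind the other 4 received 20 µE, for 48 hours in both groups. The labels give no tissue, plant age, light regime before those hours, or area and time unit for the µE. They do not say that the replicates, numbered 1 to 4 in both groups, came from separate plants, so the spread between arrays may be technical.

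Most proteins of chloroplasts and mitochondria are made from nuclear genes, but both organelles keep small genomes of their own, which nuclear-encoded proteins help to express. PPR proteins are chains of helical repeats that recognise particular organelle transcripts, and they act in the editing, splicing, trimming and protection of those RNAs. RRM proteins of the chloroplast bind many transcripts and protect or process them, while mTERF proteins, built of another helical repeat, act in organelle transcription, intron splicing or ribosome assembly. In leaves these families are known for their part in building the photosynthetic machinery, since many of its core subunits are encoded in the chloroplast.

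The deposited values are intensities in arbitrary units, on a scale whose maximum is the same on every array. Summed intensity ran from 3341 to 3648 at 200 µE and from 2549 to 3196 at 20 µE. Deposited values were higher at 200 µE for most probes: their median log2 difference, taken over the 2600 probes with no 0 on any array, was 0.82, and in the brightest 25% of these it was 0.49. For this reason each gene is given both as deposited and after quantile normalization, which sets every array to the same distribution and so measures a gene against the other probes; the median difference was then −0.04. Changes are called at a limma adjusted p of 0.05 over all probes, which 79 probes passed as higher and 156 as lower at 200 µE. The split moved with the scaling, to 883 higher and 44 lower in the deposited values and to 43 higher and 168 lower with median centring. Replicates 1 and 2 of both groups stood apart from replicates 3 and 4 on the first principal component (53.0% of the variance), so values within each of these sets are given. Of 9 genes fixed as markers of green tissue, 5 were on a single-gene probe. Their summed deposited intensity ran from 10.3 to 13.0 at 200 µE and from 13.9 to 29.6 at 20 µE. SBPASE among them was listed at 0 on every array. None of the genes fixed as markers of root, seed or pollen was on a single-gene probe.

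All 4 genes were above 0 on all 8 arrays, and none reached the maximum of the scale on any array. After normalization AT3G26630 was lower at 200 µE and the other 3 genes had higher means there. Among the members, 1 passed the threshold as higher, AT1G01080, where 2.3% of all probes did, and 1 passed as lower, AT3G26630, where 4.54% did. The labels do not state a pairing by replicate number. With that number as a block AT1G62150 also passed as higher, beside 7.91% of all probes, and AT3G26630 again as lower, beside 10.1%. Because this contrast was known when the genes were picked, these counts describe the members and support nothing about them as a set.

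The PPR gene AT3G26630 was lower at 200 µE in every replicate, with the largest difference of the members. Its deposited intensity was 6.44, 6.34, 7.22 and 6.60 in replicates 1 to 4 at 200 µE, against 11.97, 11.94, 22.0 and 20.4 at 20 µE. The arrays at 200 µE lay close together, with a coefficient of variation of 5.95%, while those at 20 µE were lower in replicates 1 and 2 than in replicates 3 and 4, with a coefficient of variation of 32.5%. The groups did not overlap. Ranked from the brightest, the probe stood at places 58, 60, 48 and 57 of 3439 at 200 µE. At 20 µE it stood at places 35, 32, 22 and 21, so it lost rank on every array of bright light whatever the scale. These values are of the single-gene probe alone. The probe that lists AT3G26630 with AT2G42920 was at 0 on 7 of the 8 arrays.

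Normalized, AT3G26630 averaged 7.34 ± 0.662 at 200 µE and 15.5 ± 4.1 at 20 µE (SD, n = 4 each). The log2 difference was −1.04 ± 0.20 (SE), which is 2.06-fold lower at 200 µE, and it was −1.26 in the deposited values, 2.40-fold lower. A lower deposited value was uncommon here. The deposited difference of AT3G26630 lay at percentile 0.385 of the 2600 probes above 0 on all arrays. That is 2.08 below their median on the log2 scale. Most of those probes are dimmer. AT3G26630 lies at percentile 98.98 of brightness among all 3439 probes, and the deposited difference was smaller among the brightest probes. After normalization the difference of AT3G26630 lay at percentile 5.23 of the same probes. Its share of the summed intensity of its array was 0.19% ± 0.00922 at 200 µE and 0.562% ± 0.123 at 20 µE (SD, n = 4 each). Whether fewer cells of a type or less RNA per cell lies behind a lower signal cannot be told apart in RNA of whole plants or tissues. The summed deposited intensity of the green tissue markers was also lower at 200 µE. That sum does not show how each marker moved, and their part in the difference was not tested.

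The arrays of the same replicate number gave normalized log2 differences for AT3G26630 of −0.68, −0.90, −1.17 and −1.42, all negative. The difference averaged −0.79 in replicates 1 and 2 and −1.30 in replicates 3 and 4, and AT3G26630 passed the threshold within each set. Each set has 2 arrays per group and is part of the arrays on which the gene was picked. These calls therefore describe the gene and give no separate support. Of all 3439 probes, 176 passed as lower in the first set and 313 in the second. The call over all arrays did not withstand every omission of 1 array. It was lost without any 1 of the 4 arrays at 200 µE and without replicate 3 or 4 at 20 µE, with log2 differences from −1.10 to −0.92 in these 6 omissions. It was kept without replicate 1 or 2 at 20 µE, at −1.18 and −1.13.

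**Figure D1:**
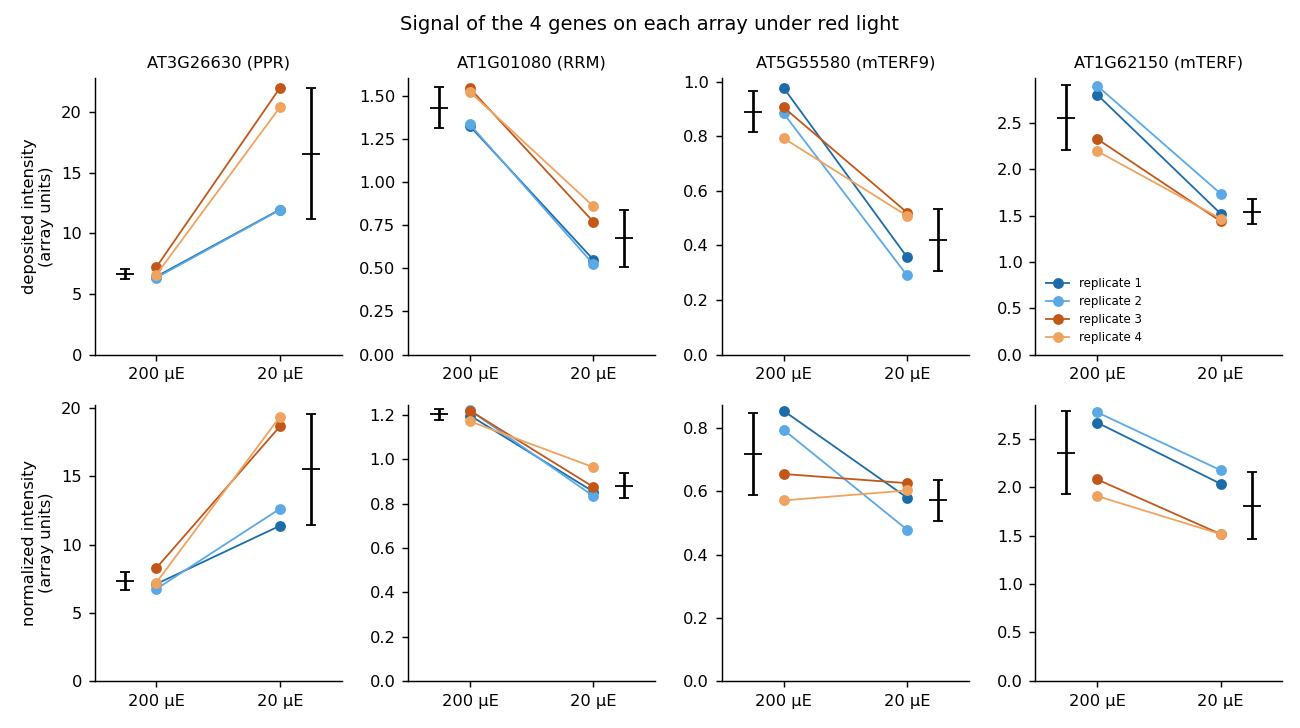
Intensity of AT3G26630, AT1G01080, AT5G55580 and AT1G62150 on each array, as deposited (upper row) and quantile normalized (lower row), in array units on linear axes that start at 0; lines join arrays of the same replicate number, and black marks give the mean and SD of 4 arrays. AT3G26630 is lower at 200 µE on every line, and AT1G01080 and AT1G62150 are higher on every line in both rows, while AT5G55580 is higher on every line as deposited and lower in replicate 4 after normalization.

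The RRM gene AT1G01080 differed by less than AT3G26630 but with little scatter. Its deposited intensity was 1.33, 1.34, 1.55 and 1.52 in replicates 1 to 4 at 200 µE, against 0.55, 0.523, 0.77 and 0.86 at 20 µE. All arrays at 200 µE were above all arrays at 20 µE, by a factor of 2.16 on average (log2 difference 1.11). That is 0.30 above the median difference of the probes above 0 on all arrays, at percentile 71.3, so the deposited rise of AT1G01080 was only a little more than that of the typical probe.

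After normalization AT1G01080 averaged 1.2 ± 0.0233 at 200 µE and 0.881 ± 0.0575 at 20 µE (SD, n = 4 each), a log2 difference of 0.45 ± 0.05 (SE) or a rise of 1.37-fold. The same-numbered differences were 0.49, 0.55, 0.48 and 0.28, and all 4 were positive. They averaged 0.52 in replicates 1 and 2 and 0.38 in replicates 3 and 4, and within the second set AT1G01080 did not pass the threshold. Around its group means the gene had a within-group SD of 0.07 on the log2 scale, at percentile 0.5 of the probes above 0 on all arrays, whose median was 0.41. The call held without any 1 of the 8 arrays. It was lost when limma estimated the shared variance without the probes at 0 on some array, or without the dimmest 25%. The difference was unchanged at 0.45, but its SE was 0.14 in the first of these fits and 0.13 in the second. Median centring also ended the call, at a log2 difference of 0.27.

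A second probe carries AT1G01080 together with AT1G60000, and its signal cannot be assigned to either. It gave deposited intensities of 1.47, 0.91, 1.40 and 1.36 at 200 µE, against 0.725, 0.366, 0.642 and 0.719 at 20 µE. The log2 difference of this shared probe was 1.10 as deposited and 0.41 ± 0.21 (SE) after normalization, close to the values of the single-gene probe, and its same-numbered normalized differences ran from 0.32 to 0.53. It varied more between replicates, with normalized means of 1.07 ± 0.209 at 200 µE and 0.809 ± 0.192 at 20 µE (SD, n = 4 each), and it missed the threshold without the replicate block and passed with it.

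**Figure D2:**
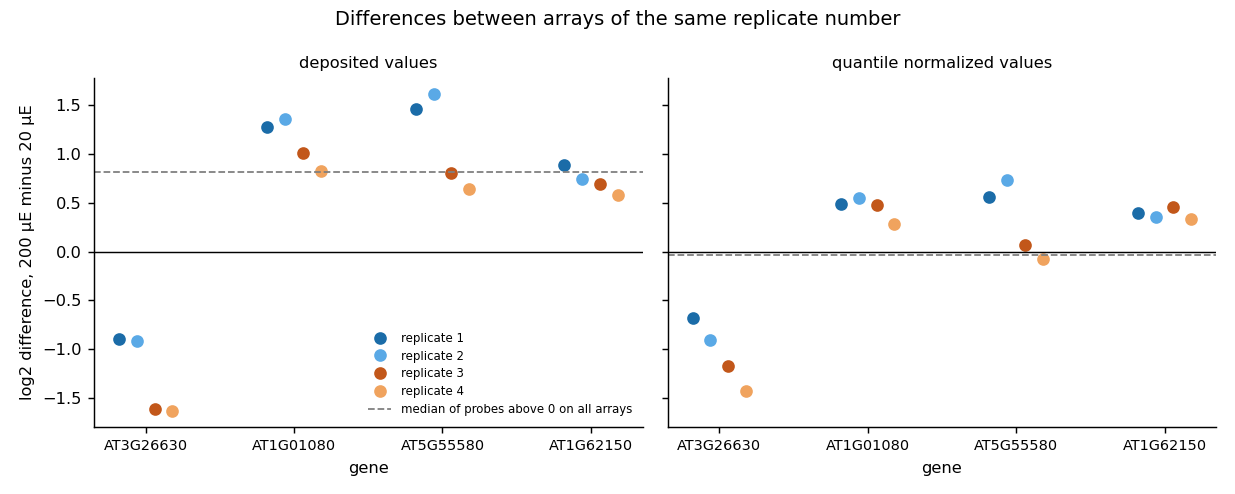
Log2 difference between the 200 µE and the 20 µE array of each replicate number for the 4 genes, from deposited values (left) and normalized values (right); the dashed line is the median of the 2600 probes above 0 on all arrays, 0.82 on the left and −0.04 on the right. AT3G26630 lies below 0 in every replicate on both sides, and AT5G55580 shows the widest gap between replicates 1 and 2 and replicates 3 and 4 among the genes with higher means.

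The mTERF gene AT5G55580 (mTERF9), which in Arabidopsis is known as a chloroplast protein, was higher at 200 µE as deposited, but after normalization its differences were near 0 in replicates 3 and 4. Its deposited intensity was 0.978, 0.884, 0.906 and 0.793 at 200 µE, against 0.357, 0.29, 0.52 and 0.508 at 20 µE. These groups did not overlap and differed 2.18-fold (log2 difference 1.13), at percentile 72.4 of the probes above 0 on all arrays. Normalized values were 0.855, 0.795, 0.655 and 0.571 at 200 µE, against 0.58, 0.479, 0.626 and 0.603 at 20 µE, and here the groups overlapped, since replicate 4 at 200 µE fell below 3 of the 20 µE arrays.

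The normalized means of AT5G55580 were 0.719 ± 0.129 at 200 µE and 0.572 ± 0.065 at 20 µE (SD, n = 4 each), with a log2 difference of 0.32 ± 0.15 (SE) that missed the threshold with and without the replicate block. The same-numbered differences were 0.56, 0.73, 0.07 and −0.08. They averaged 0.65 in replicates 1 and 2 and −0.01 in replicates 3 and 4; a difference between these sets was not tested. The probe that lists AT5G55580 together with AT1G78930 had a similar course, with normalized same-numbered differences of 0.29, 0.53, 0.16 and −0.11 and a log2 difference of 0.22 ± 0.23 (SE), or 1.01 as deposited.

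The second mTERF gene, AT1G62150, had the smallest SD between same-numbered differences of the members. Its deposited intensity was 2.81, 2.90, 2.33 and 2.20 at 200 µE, against 1.52, 1.74, 1.44 and 1.47 at 20 µE. All arrays at 200 µE were above all arrays at 20 µE, 1.65-fold on average (log2 difference 0.73), yet this rise was 0.09 below the median difference of the probes above 0 on all arrays, at percentile 42.8. As a share of the summed intensity of its array, AT1G62150 stood at 0.0736% ± 0.0128 at 200 µE and 0.0541% ± 0.0108 at 20 µE (SD, n = 4 each).

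Normalized values of AT1G62150 were 2.67, 2.77, 2.08 and 1.91 at 200 µE, against 2.04, 2.18, 1.52 and 1.52 at 20 µE. Replicates 1 and 2 were above replicates 3 and 4 in both groups, by 0.46 on the log2 scale over all arrays, and the groups overlapped. Within a replicate number the light levels differed by 0.39, 0.35, 0.46 and 0.33, a mean of 0.38 with an SD of 0.06 between replicates. The SE of that difference was 0.18 without a block and 0.03 with the replicate number as a block. On normalized values the gene passed with that block or with the sets as a block, not without. The labels state neither block. Both were taken from how these same arrays varied, so the calls made with them may be too favourable. With the sets as a block, 318 of all 3439 probes passed as higher. The difference averaged 0.37 in replicates 1 and 2 and 0.39 in replicates 3 and 4. With median centring the log2 difference turned to −0.12, which missed the threshold. That scaling subtracts a single amount per array. AT1G62150 lies at percentile 95.1 of brightness, among the brightest 25% of probes, where the median deposited log2 difference was 0.49. The deposited log2 difference of AT1G62150 itself was 0.73. Whether its brightness has a part in the turned sign was not tested.

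**Figure D3:**
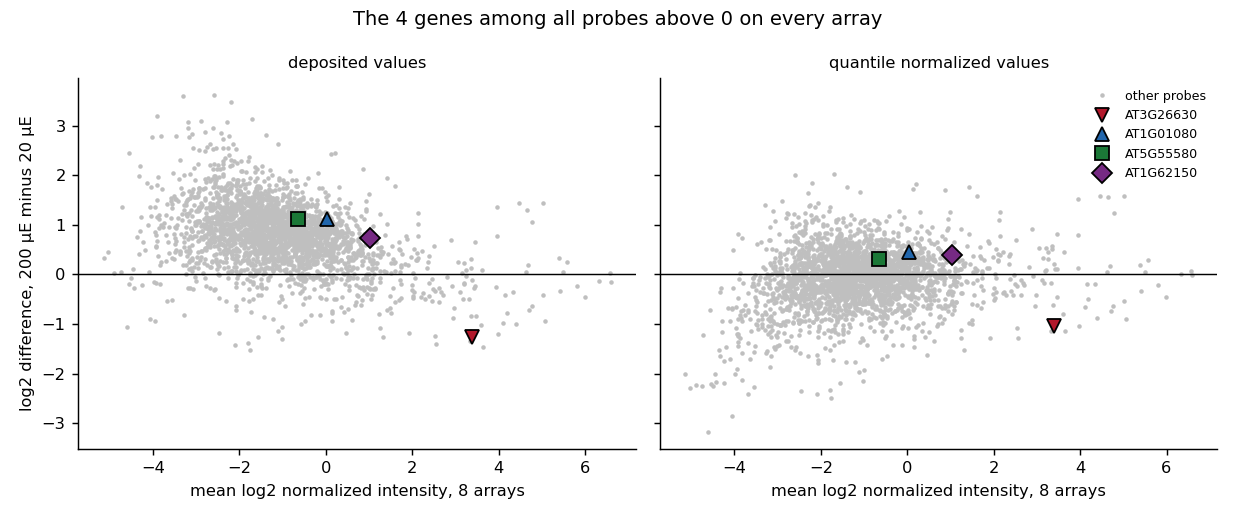
Log2 difference between 200 µE and 20 µE against mean log2 normalized intensity for the 2600 probes above 0 on every array (grey) and the 4 genes (coloured symbols), from deposited values (left) and normalized values (right). On the left most grey points lie above 0 and less so toward the bright end, where AT3G26630 stands at −1.26; on the right the cloud is centred near 0 and AT1G01080, AT5G55580 and AT1G62150 stand between 0.32 and 0.45.

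Set side by side, the scales change how far the members separate from the other probes. In the deposited values all 4 passed the limma threshold, AT3G26630 as lower, where 1.28% of all probes passed, and the other 3 as higher, where 25.7% did. Groups did not overlap as deposited for all 4, again 1 lower and 3 higher, which held for 2.15% and 42% of the probes above 0 on all arrays. After normalization the groups did not overlap for AT3G26630, lower, and AT1G01080, higher, which held for 11.2% and 5.77% of those probes. Divided by the summed intensity of its array, a scaling added after the data were seen, AT3G26630 differed by −1.54, AT1G01080 by 0.84, AT5G55580 by 0.85 and AT1G62150 by 0.45 on the log2 scale, where the median of the probes above 0 on all arrays was 0.54. AT1G62150 thus stood above the median of those probes after quantile normalization and below it in the deposited values. Sum scaling takes a single amount from each array and so leaves the place of a gene against that median as it was in the deposited values.

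**Figure D4:**
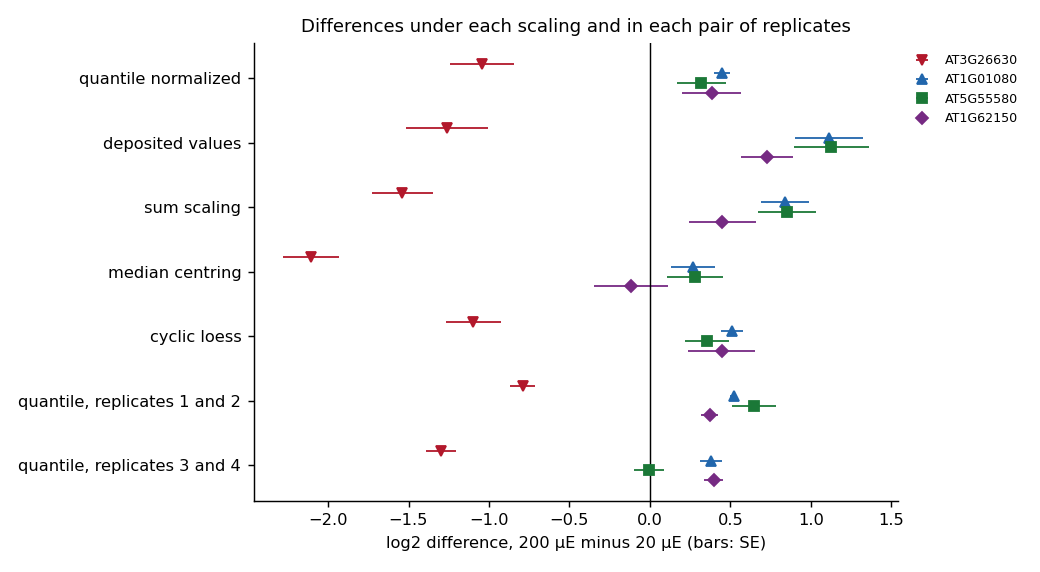
Log2 difference between 200 µE and 20 µE with its SE for the 4 genes under 5 scalings of all arrays and, for quantile normalized values, within replicates 1 and 2 and within replicates 3 and 4. AT3G26630 stays between −2.11 and −0.79 throughout; AT1G62150 turns to −0.12 with median centring, and AT5G55580 is at −0.01 in replicates 3 and 4.

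The members did not share a single course over the 8 arrays. Pearson's r of the normalized log2 values, given as a description since the arrays share light groups and sets, was 0.70 between AT1G01080 and AT5G55580, 0.53 between AT1G01080 and AT1G62150 and 0.54 between the mTERF genes. AT3G26630 ran against the others, with r from −0.83 (AT1G62150) to −0.51 (AT5G55580). The third shared probe, which lists AT3G26630 and AT2G42920, was listed at 0 on 7 of the 8 arrays. On the other, replicate 1 at 20 µE, it was at 0.0158. The single-gene probe stood among the 60 brightest throughout, so the shared probe did not bear out its level. Pearson's r between them was 0.07, with the shared probe at 0 on most arrays. No other probe backs the values given for AT3G26630. Why these probes differ in level was not tested, and no value of AT3G26630 was taken from the shared probe.

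Among the 536 other single-gene probes above 0 on all arrays, AT3G26630 was most like AT3G09080 (r = 0.99), AT5G11010 (r = 0.97) and CYN (r = 0.97) over the 8 arrays. AT1G01080 was most like AT4G27250 (r = 0.98), AT3G52960 (r = 0.94) and AT2G46850 (r = 0.93). The nearest to AT5G55580 were AT3G57630 (r = 0.94), AGL54 (r = 0.87) and AT1G35340 (r = 0.87). For AT1G62150 they were AT1G61590, AT2G17670 and AT2G19280, with r = 0.98 or 0.99. The genes nearest to AT3G26630 had log2 differences from −0.80 to −0.64 between the light levels, smaller than its own −1.04.

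Other genes of organelle RNA families could be recognised only by the names in the gene table. The rule on names found 2, OTP70 and OTP85, both named for organelle transcript processing. Genes listed by locus alone could not be recognised this way, so the list may be incomplete. OTP85 was listed at 0 on 7 of the 8 arrays, so no difference is given for it. OTP70 had a log2 difference of 0.18 ± 0.38 (SE), with same-numbered differences of −0.31 and −0.09 in replicates 1 and 2 and of 0.56 and 0.57 in replicates 3 and 4. It missed the limma threshold with and without the replicate block, and passed as higher in replicates 3 and 4 alone, at 0.57 ± 0.06 (SE), where 8.67% of all probes did. CRR21, a PPR protein of chloroplast RNA editing, was added from the annotation because the rule had found so few. Its normalized log2 difference was −0.34 ± 0.09 (SE), which missed the limma threshold with and without the replicate block, and its deposited difference ran the other way, at 0.55.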

How the data were processed

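Total RNA of 8 wild-type samples was measured on 1 single-channel array each; light level and replicate number come from the labels' titles. The authors' deposited values are intensities per probe on a linear scale with no negative value; the sources used here do not describe the steps behind them. From 476 to 604 probes per array are at 0. No 2 arrays held identical values. The number of arrays limits the precision.

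Each 0 was replaced by its array's smallest value above 0, the arrays were quantile normalized, and limma 3.58.1 (R 4.3.3) was fitted to the log2 values (lmFit, eBayes, 4 against 4, no covariate, two-sided, Benjamini-Hochberg over all 3439 probes, threshold 0.05). Differences are 200 µE minus 20 µE. The fit was tested on simulated data. Single-gene probes (692, of which 690 are in the gene table of assembly TAIR10.1) were named from the platform annotation; 870 probes list several genes and 1877 are unnamed here.

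Same-numbered arrays deviated together from their group means (r from 0.707 to 0.735 over the 4 pairs, against 0.444 to 0.462 for other numbers within a set and −0.623 to −0.556 across sets), so the numbers were taken as pairs on this evidence; the labels do not state a pairing.

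The members, lists and alternatives were chosen with earlier results of these data known. Named by rule were the members, any other organelle gene that passed, the 2 largest differences in each family, and, for each member, the 3 probes of highest r; CRR21 and OTP85 were named besides. No sequence or coordinate was used here.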

Additional observations from a re-analysis of the deposited data

Results flagged for a closer look

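Of 16 groups of 4 arrays examined for an array far from the others, over the 4 genes, the probes they share, OTP70 and CRR21, 0 held one by Dixon's criterion; groups with a value at 0 were left out.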

How the results depend on the processing

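The count of probes called was 235, and it was 619 with the replicate block, 746 with the sets as a block, 611 in replicates 3 and 4, 927 in the deposited values, 156 over probes above 0 on all arrays, 146 without the lowest 25%, and 140 to 173 without 1 array. Members called were 2, with 3 under the replicate block, 4 in the deposited values, 1 with median centring, with either filter or in replicates 3 and 4, and 1 to 2 without 1 array. Beside AT1G62150, the replicate block changed no member's call. Of the organelle genes found by name, 1, OTP70, was called as higher in replicates 3 and 4. The log2 difference of AT3G26630 moved to −2.11 with median centring and −1.54 with sum scaling. That of AT1G01080 moved to 1.11 in the deposited values, 0.27 with median centring and 0.84 with sum scaling. That of AT5G55580 moved to 1.13 and 0.85 in the deposited and sum-scaled values. That of AT1G62150 moved to 0.73 (deposited), −0.12 (median centring), 0.44 (cyclic loess) and 0.45 (sum scaling), and to between 0.30 and 0.48 without 1 array. The filters change the variance shared between probes and the number of probes, not the differences; other causes were not tested. A floor set after normalization moved no difference. No depth or background signal was used, so detection could not be judged.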
